A study of Mus musculus with 6 samples.

Results

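Cytosolic ribosomal proteins are encoded by 86 of the 23228 genes in the deposited expression table, taken as every symbol that begins with Rpl or Rps and a digit, plus Rplp0, Rplp1, Rplp2 and Rpsa, without the Rps6k kinases and without pseudogenes. Of these, 46 encode core proteins of the large ribosomal subunit and 31 core proteins of the small subunit. A further 7 are paralogs of a core gene, and 2 carry a matching name without belonging to the mature ribosome: Rps19bp1, which encodes an Rps19-binding protein, and Rpl7l1, a ribosome assembly factor. Fau, which encodes a ribosomal protein fused to a ubiquitin-like sequence, lies outside the name rule and is given beside the members.

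The RNA came from LSK cells, a marrow fraction without lineage markers and positive for Sca-1 and c-Kit, in which blood stem cells and early progenitors are found. All donor cells were wild type and Ly5.1+. They had been transplanted into Ly5.2+ recipients on a C57BL/6 background, either ICAM-1-/- (3 libraries) or wild type (WT, 3 libraries), and were sorted from bone marrow 8 weeks later, so the genotype in the labels is that of the recipient. ICAM-1 is an adhesion molecule on endothelium and stroma that binds leukocyte integrins; the sources used here do not give the recipients' age, sex or conditioning. Values are FPKM (fragments scaled to transcript length and library total), as deposited, with unknown depth.

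The ribosome translates mRNA into protein. Its small subunit reads the message and its large subunit joins amino acids, and 1 copy of nearly every core protein is needed per particle. Their mRNAs are short, abundant and among the best known TOP mRNAs, which begin with a cytosine and a terminal oligopyrimidine tract through which mTOR signalling controls their translation. Hematopoietic stem cells are known for a low rate of protein synthesis, and loss of 1 gene copy of several ribosomal proteins causes Diamond-Blackfan anemia, a failure of red cell formation.

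The start sites that carry this tract are shown because the tract is the sequence feature for which the family is known. RefSeq's GRCm38.p6 promoter table matched 65 of the 86 genes. Of the 65, 13 (20%) had a C at an annotated start that opened a run of at least 5 pyrimidines. The share was 3.01% of 27025 genes with an entry and 3.08% of the 7573 of these whose expression was tested. A run of 8 or more C or T bases reaching into the 10 bases on either side of the start was present in 44.6% of members, 15.8% of all genes and 17% of tested genes. The windows below hold the 20 bases before the annotated start and the 20 bases from it on, 5′ to 3′ on the gene's strand. Capitals mark the base at the annotated start. Where that base is C or T, they also mark the unbroken run of C and T beginning with it. No start was measured here, so a window without the tract does not show that the mRNA lacks it. The first 5 are the most abundant members of the 13 with a single promoter entry. The last 3 were chosen for 100 FPKM or more in both replicate 1 libraries and for lacking the tract, and have a purine there. The windows therefore show no link between tract and level. The tract was present in 4 of 19 matched members at 0 in both replicate 1 libraries and 5 of 19 at 0 in 1. It was present in 4 of 15 above 0 in both but under 100 FPKM in 1 or both, and in 0 of 10 at 100 FPKM or more in both. A link was not tested.
Rpl35: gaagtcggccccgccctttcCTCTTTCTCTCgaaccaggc
Rplp2: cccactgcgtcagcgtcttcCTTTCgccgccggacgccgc
Rpl28: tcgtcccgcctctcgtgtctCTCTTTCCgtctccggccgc
Rpl38: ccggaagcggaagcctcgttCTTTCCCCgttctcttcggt
Rps10: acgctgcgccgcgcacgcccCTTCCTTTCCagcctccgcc
Rps3: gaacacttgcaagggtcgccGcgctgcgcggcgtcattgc
Rps15: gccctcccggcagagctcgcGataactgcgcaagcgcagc
Rplp0: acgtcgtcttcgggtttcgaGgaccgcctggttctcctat
In the same order these windows lie at chr2:39005112-39005151 (- strand, Rpl35), chr7:141447631-141447670 (+ strand, Rplp2), chr7:4792945-4792984 (+ strand, Rpl28), chr11:114668560-114668599 (+ strand, Rpl38), chr17:27635225-27635264 (- strand, Rps10), chr7:99483690-99483729 (- strand, Rps3), chr10:80292411-80292450 (+ strand, Rps15), chr5:115559447-115559486 (+ strand, Rplp0). No source used here names the authors' build, so these positions belong to the RefSeq table alone.

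Within the same windows of 250 bases before to 50 after the start, CCGGAAG, the core of an ETS factor site, was found on either strand in 26 of 65 members (40.0%), 9.93% of all genes and 21.7% of tested genes. AAGATGGC, a YY1 motif, was found in 9.23% of members, 3.19% of all genes and 5.64% of tested genes, and CTTTCC in 53.8% of members, 29.3% of all genes and 30.8% of tested genes. TATAAA was found in 10.8% of members, a share below that of all genes (15.7%) and above that of tested genes (8.19%). No searched motif contains another on either strand. These are letter matches at annotated starts.

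The 6 libraries were uneven before any gene was compared. Genes at 1 FPKM or more numbered 9518, 7546 and 10864 in ICAM-1-/- replicates 1 to 3 and 5845, 10256 and 9867 in WT replicates 1 to 3. Icam1 stood at 32.1, 10.9 and 14.1 FPKM in the ICAM-1-/- libraries and at 26.4, 9.12 and 7.97 FPKM in the WT libraries, where the deletion is the recipient's and the sorted donor cells are wild type. Of 10 stem cell and LSK markers, Mecom and Procr were listed at 0 in ICAM-1-/- replicate 1, and Ly6a, Hlf and Procr among others in WT replicate 1, while Kit was above 0 in every library. The 10 markers summed to 168, 209 and 423 FPKM in ICAM-1-/- and to 80.2, 208 and 291 FPKM in WT. The 6 macrophage markers, led by C1qb, summed to 641 FPKM in ICAM-1-/- replicate 1 and 1213 FPKM in WT replicate 1, against 21.7 to 104 FPKM in the other 4, and none was at 0 in any library. Small RNA genes took 44.5%, 33.4% and 41.7% of all FPKM in the ICAM-1-/- libraries and 69.4%, 28% and 33.8% in the WT libraries.

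Ribosomal protein FPKM were low in both replicate 1 libraries, 1 of each recipient type. The median member stood at 12.1, 505 and 1062 FPKM in replicates 1 to 3 of ICAM-1-/-, and at 0, 644 and 727 FPKM in WT replicates 1 to 3. Replicate 1 was the lowest library of each group, and the groups overlapped. Of the 86 members, 32 were listed at 0 in ICAM-1-/- replicate 1 and 47 in WT replicate 1. The members' summed share of all FPKM was 2.60%, 14.1% and 12.1% in the ICAM-1-/- libraries and 1.21%, 13.3% and 13.9% in the WT libraries. With small RNA genes left out of the total the shares were 4.68%, 21.2% and 20.7% in ICAM-1-/- and 3.94%, 18.5% and 20.9% in WT, so the low share of replicate 1 was present on either denominator. In these bulk samples, fewer cells of a type, less RNA per cell and values of 0 from failed estimates cannot be told apart. The summed macrophage markers given above were highest, and the summed stem cell markers lowest within each group, in the same 2 libraries, and their part in the result was not tested.

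**Figure D1:**
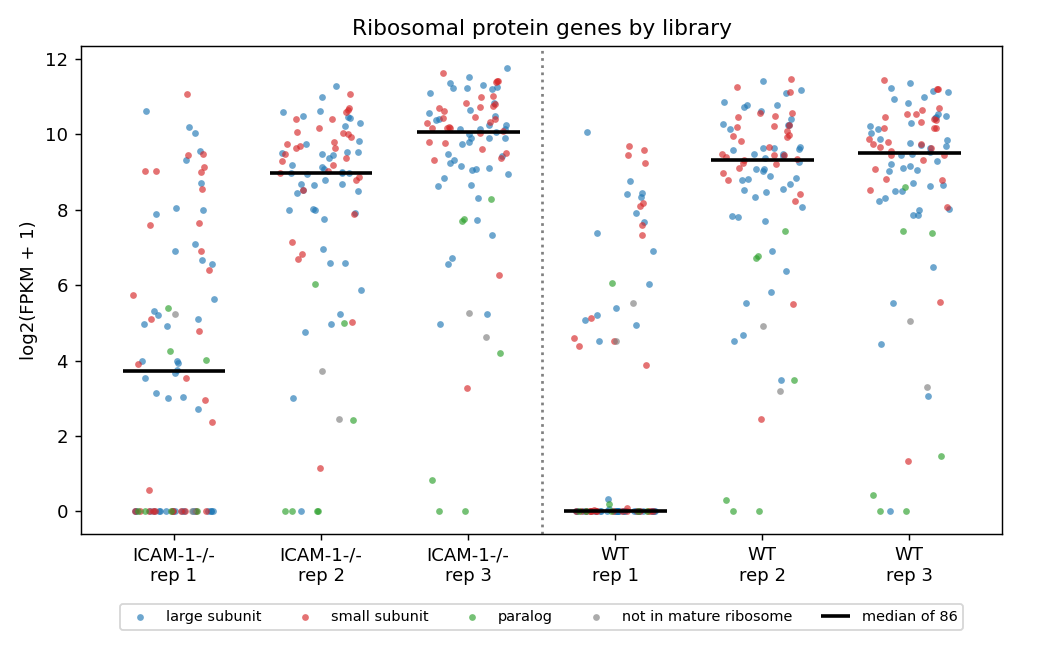
Level of each of the 86 ribosomal protein genes in each library, as log2(FPKM + 1), by class; points are genes, spread sideways for legibility, and black lines are medians over the 86. The medians are 3.71, 8.98 and 10.05 in ICAM-1-/- replicates 1 to 3 and 0, 9.33 and 9.51 in WT replicates 1 to 3, and both replicate 1 libraries hold a row of genes at 0.

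Many members were listed at 0 in the replicate 1 libraries although they were among the most abundant genes elsewhere. The count at 0 was 32, 4 and 2 of 86 in ICAM-1-/- replicates 1 to 3 and 47, 2 and 2 in WT replicates 1 to 3. Among genes averaging 10 FPKM or more, 35.4% of 82 members and 5.05% of all 4377 genes were at 0 in ICAM-1-/- replicate 1. In WT replicate 1 these shares were 53.7% of members and 23% of all genes. Members are shorter than most genes, and in both libraries other genes under 900 nt were also more often at 0 than all genes. Values by length are given below. Rpl10, a large subunit protein that completes the peptidyl transferase region, was listed at 0, 2025 and 2938 FPKM in replicates 1 to 3 of ICAM-1-/- and at 0, 2751 and 2646 FPKM in WT replicates 1 to 3. Rpl10a, a protein of the mobile L1 stalk, was likewise listed at 0 in both replicate 1 libraries, with 740 and 954 FPKM in replicates 2 and 3 of ICAM-1-/- and 786 and 1430 FPKM in WT replicates 2 and 3. Of the other most abundant members, Rps12, a small subunit protein, stood at 0.481, 1351 and 3163 FPKM in ICAM-1-/- and 0, 2434 and 2763 FPKM in WT. Rps2, at the mRNA entry, stood at 373, 1669 and 2663 FPKM in ICAM-1-/- and 290, 2241 and 2377 FPKM in WT, and Rps14, the gene lost in the 5q- syndrome of human, at 717, 2157 and 2719 FPKM in ICAM-1-/- and 771, 2834 and 2365 FPKM in WT. Thus Rps2 and Rps14 were lower in replicate 1 without being at 0. In all, 26 members were at 0 in both replicate 1 libraries, 24 of them among the tested genes, and 27 more were at 0 in 1 of the 2. A value of 0 in a table without counts can be a failed estimate and is given here only as listed.

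Another 16 members stood at 100 FPKM or more in both replicate 1 libraries, 8 of each subunit. Rps3, a small subunit protein at the mRNA entry channel, was the steadiest member: 695, 803 and 776 FPKM in replicates 1 to 3 of ICAM-1-/- and 827, 593 and 637 FPKM in WT replicates 1 to 3, a highest value 1.39 times the lowest. Rpl8, a large subunit protein near the peptidyl transferase center, stood at 1052, 507 and 966 FPKM in ICAM-1-/- and 242, 689 and 735 FPKM in WT.

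Rpl34, a large subunit protein, ran opposite to the family. It stood at 1583, 7.10 and 30.6 FPKM in replicates 1 to 3 of ICAM-1-/- and at 1075, 21.9 and 20.6 FPKM in WT replicates 1 to 3. It made up 11.3% and 14.2% of the summed ribosomal protein FPKM in the ICAM-1-/- and WT replicate 1 libraries, and 0.0132% to 0.0329% elsewhere. Of 84 tested members, 55 had a replicate 1 mean under 10% of the mean of the other 4 libraries and 23 had one between 10% and 100%. The 6 with a higher replicate 1 mean were Rpl34, Rpl39l, Rpl7l1, Rps19bp1, Rps27 and Rps3. Across the 84 members, log2(FPKM + 1) correlated at r = 0.68 between the replicate 1 libraries (Spearman's rho 0.62) and at 0.95 to 0.99 among ICAM-1-/- replicate 3, WT replicate 2 and WT replicate 3. ICAM-1-/- replicate 2 correlated with these 3 at 0.87 to 0.90, and WT replicate 1 with the libraries of replicates 2 and 3 at -0.003 to 0.10. Genes are not replicates, and these values only describe the libraries.

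**Figure D2:**
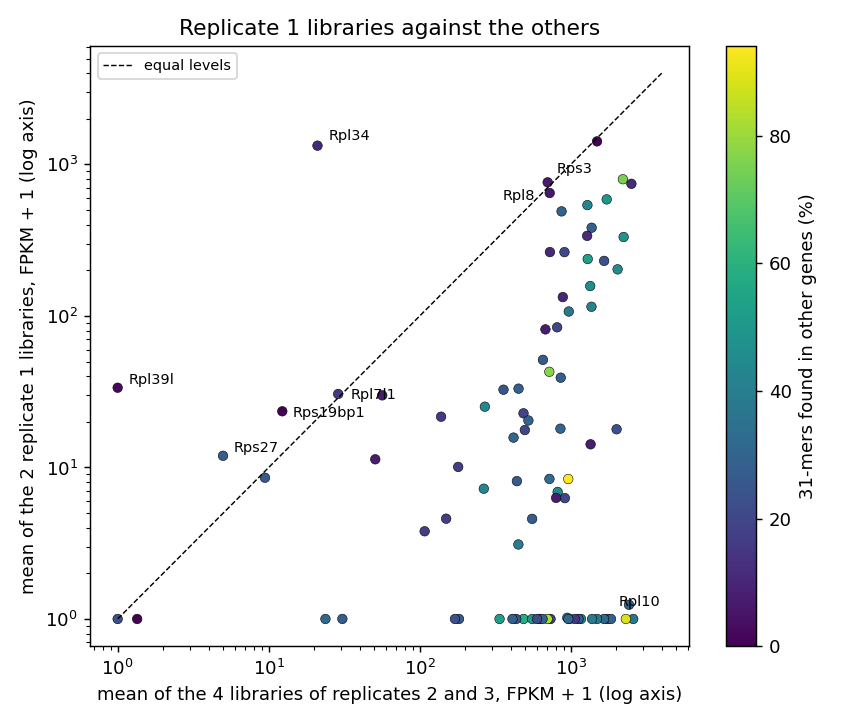
Mean level of each member in the 2 replicate 1 libraries against its mean in the 4 libraries of replicates 2 and 3, both as FPKM + 1 on log axes; color gives the share of a gene's 31-base stretches that also occur in other genes. Rps3 lies near the line of equal levels, Rpl34 lies far above it, and the row at the bottom holds the members listed at 0 in both replicate 1 libraries.

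At an adjusted p of 0.05, no ribosomal protein gene differed by recipient genotype. The comparison applied limma to log2(FPKM + 1) of the 10477 genes averaging 1 FPKM or more, and gives differences as ICAM-1-/- minus WT on that scale, which understates changes of low genes. All but Rpl10l and Rpl3l of the 86 members passed this filter. Of all tested genes 0% were called, and 0.515% had an unadjusted p under 0.05; among the 84 tested members, 0 were called and 0 had an unadjusted p under 0.05. The group difference was above 0 for 57 members (67.9%) and below 0 for 27, with a median of 0.33, against 53.8% above 0 and a median of 0.08 over all genes. No member had groups that did not overlap, against 4.08% of all tested genes (3.23% higher and 0.849% lower in ICAM-1-/-). The 24 tested members at 0 in both replicate 1 libraries could not separate, because both groups held a 0. Members at 0 in only 1 of these libraries could separate in 1 direction only, so the zeros largely limit this comparison. The standard error of a member's difference ran from 0.73 to 3.28, with a median of 2.04, so that the replicate spread was several times the median difference. With median-of-ratios scaling 89.3% of members were above 0, with a median of 0.59, while the median of all genes was 0.24. The sign of the members' median rested on single libraries: it was -1.28 without WT replicate 1, with 8 of 84 above 0, and -0.58 without ICAM-1-/- replicate 3, with 29 above 0, but 2.41 without ICAM-1-/- replicate 1, with 78 above 0. Leaving out WT replicate 2 gave 1.60, WT replicate 3 gave 1.65, and ICAM-1-/- replicate 2 gave 0.06.

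The members of smallest p on the higher side were Rps4y2, Rps20, Rpl7 and Rps26. Rps20, a small subunit protein of the 40S head, stood at 526, 371 and 1142 FPKM in replicates 1 to 3 of ICAM-1-/- and was listed at 0, 639 and 755 FPKM in WT replicates 1 to 3. The WT zero stood apart, and the other 5 values overlapped. Its difference was 2.95 ± 2.03 (SE; limma adjusted p = 1.00). When the replicate number entered as a block, Rps20 was the 1 member called (limma adjusted p = 0.0238), where 0.124% of all genes were called, 0.105% higher and 0.0191% lower. That fit gave every gene a spread taken from the trend over all genes and none from its own libraries. Under the 17 other alternatives the adjusted p of Rps20 ran from 0.919 to 1.00 in limma. Without WT replicate 1 the difference of Rps20 was -0.20, and within replicates 2 and 3 it was -0.09 (limma adjusted p = 1.00 for both). At an unadjusted p under 0.05 the block fit held 13 members (2.65% of all genes), 11 higher (2.24% of all genes) and 2 lower (0.41% of all genes). Of the 11, 9 were listed at 0 in WT replicate 1.

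Rpl7, a large subunit protein, stood at 100.6, 502 and 1076 FPKM in the ICAM-1-/- libraries and at 0, 410 and 625 FPKM in the WT libraries, a difference of 2.58 ± 2.01 (SE; limma adjusted p = 1.00). Rps26, a small subunit protein at the mRNA exit channel, stood at 526, 142 and 1676 FPKM in ICAM-1-/- and at 0, 995 and 817 FPKM in WT, a difference of 2.43 ± 2.17. Without WT replicate 1 the difference was -0.42 for Rpl7 and -0.85 for Rps26. On the lower side the smallest p belonged to Rpl39l, Rps19bp1, Rps27 and Rpl37a. Rpl39l was listed at 0 in every library except WT replicate 1, at 65.2 FPKM. Rps19bp1 stood at 0, 4.46 and 23.6 FPKM in ICAM-1-/- and 45.0, 8.24 and 8.91 FPKM in WT. Rpl37a, a zinc-binding protein of the large subunit, was listed at 0, 243 and 689 FPKM in ICAM-1-/- and stood at 64.2, 462 and 406 FPKM in WT, a difference of -2.06 ± 1.95 that became 0.83 without ICAM-1-/- replicate 1. None of them passed (limma adjusted p = 1.00 each).

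**Figure D3:**
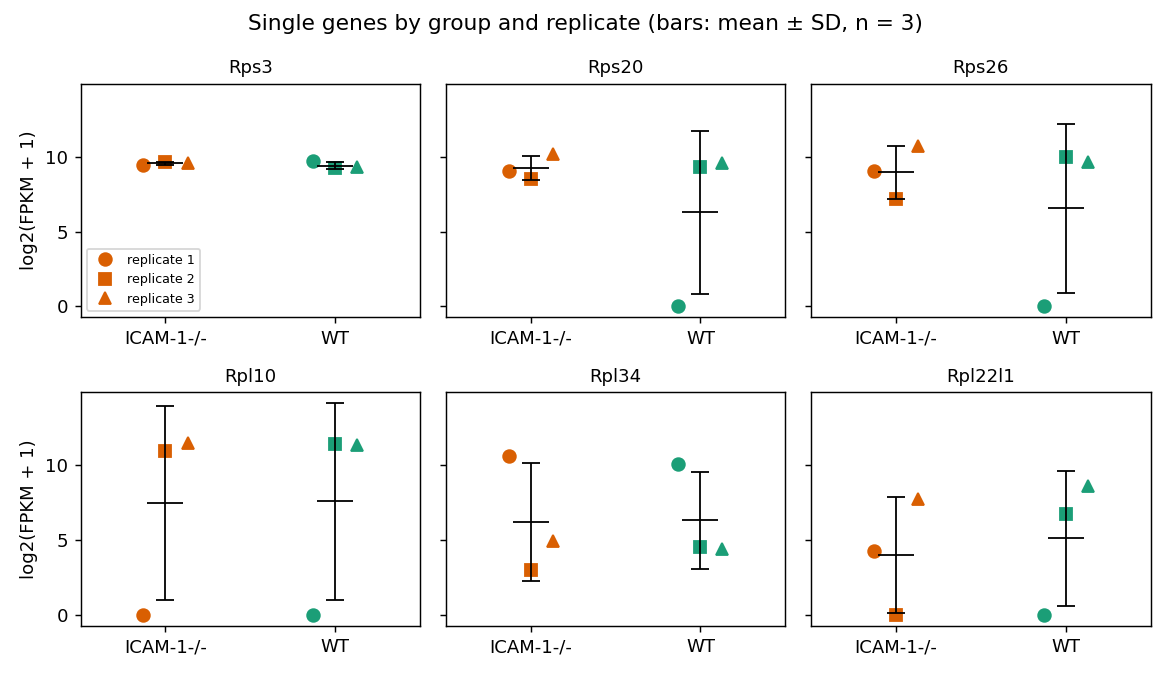
Log2(FPKM + 1) of 6 genes in each library, with ICAM-1-/- left of WT; symbols mark the replicate number and bars the mean ± SD of 3 libraries. Rps3 is nearly level in all 6, Rps20 and Rps26 have 1 value at 0 in WT replicate 1, Rpl10 has zeros in both replicate 1 libraries, Rpl34 is high there, and Rpl22l1 is at 0 in ICAM-1-/- replicate 2 and WT replicate 1.

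Within the 4 libraries of replicates 2 and 3 the members were spread evenly around 0 while most genes were lower. Of 84 members 45 were above 0 and 38 below, with a median of 0.05, against 30.6% of all genes above 0 and a median of -0.30. None was called (0.0286% of all genes were), and 2 had an unadjusted p under 0.05, Rpl30 higher and Rpl22l1 lower, against 1.5% of all genes. The 2 ICAM-1-/- values lay above both WT values for 19 members (22.6%; 10.9% of all genes) and below both for 0 (5% of all genes). These 19 were Rpl5, Rpl14, Rpl15, Rpl19, Rpl21, Rpl23, Rpl24, Rpl27, Rpl30, Rpl35a and Rplp1 of the large subunit and Rps3, Rps7, Rps9, Rps13, Rps23, Rps24, Rps25 and Rps29 of the small. Rps24, which takes part in processing of the small subunit's RNA, stood at 1553 and 1726 FPKM in replicates 2 and 3 of ICAM-1-/- and at 969 and 1160 FPKM in WT replicates 2 and 3, a difference of 0.63. Rps7, which also takes part in that processing, stood at 1059 and 1292 FPKM in ICAM-1-/-, against 707 and 793 FPKM in WT, a difference of 0.64 (limma adjusted p = 1.00 for each). In replicate 1 these 2 genes were at 26.4 and 0 FPKM in ICAM-1-/- and at 0 in WT. ICAM-1-/- replicate 2 had a low level over all genes, with a median-of-ratios factor of 0.42 against 1.42 in ICAM-1-/- replicate 3, 1.12 in WT replicate 2 and 0.99 in WT replicate 3; its part in these differences was not tested. In the same 4 libraries all 6 neutrophil markers were below 0, with a median difference of -1.5, 2 of them at an unadjusted p under 0.05, and all 4 tested B cell markers were below 0, with a median of -1.09. Over 6 libraries 5 of the 6 neutrophil markers were below 0, with a median of -2.03, and none of either list was called (limma adjusted p = 1.00). The neutrophil markers summed to 1934, 605 and 2181 FPKM in ICAM-1-/- and 760, 3054 and 1452 FPKM in WT. In ICAM-1-/- replicate 1, 4 of the 6 were at 0. Of these sums, Elane alone gave 1799, 321 and 961 FPKM in ICAM-1-/- and 155, 1124 and 850 FPKM in WT. Elane was the 1 neutrophil marker above 0 over 6 libraries, with a difference of 0.63. The B cell markers summed to 53.1, 36.9 and 51.1 FPKM in ICAM-1-/- and 38.8, 134 and 72.4 FPKM in WT. Of the 5 B cell markers, 2, 1 and 0 were at 0 in ICAM-1-/- and 4, 0 and 1 in WT. The part of these markers in the members' differences was not tested.

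**Figure D4:**
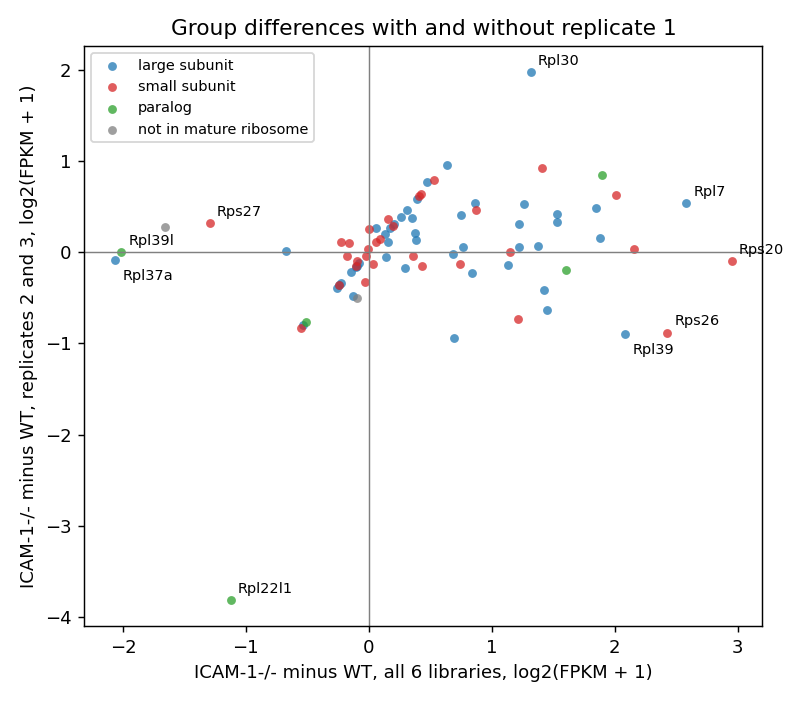
Difference between ICAM-1-/- and WT of each tested member on the log2(FPKM + 1) scale, over all 6 libraries (x axis) and over the 4 libraries of replicates 2 and 3 (y axis), by class. Rps20 lies at 2.95 on the x axis and -0.09 on the y axis, and Rpl22l1 at -1.12 and -3.81.

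The median large subunit member stood at 12.1, 502 and 966 FPKM in the ICAM-1-/- libraries and at 0, 579 and 713 FPKM in the WT libraries. Genes at 0 in replicate 1 came from both subunits: 16 of 46 large and 11 of 31 small in ICAM-1-/-, and 26 large and 16 small in WT. Over the group comparison, the large subunit had 35 of 46 members above 0 with a median of 0.39 over 6 libraries, and the small subunit 20 of 31 with a median of 0.16. The summed FPKM of the 46 large over the 31 small subunit members was 1.05, 1.18 and 1.20 in the ICAM-1-/- libraries. It was 0.884, 1.19 and 1.23 in the WT libraries, so WT replicate 1 alone had the larger sum in the small subunit. These sums cover unequal numbers of genes, so a ratio above 1 does not mean a higher level per gene. Over the 31 core members above 0 in every library, the ratio was 1.17, 0.990 and 0.909 in ICAM-1-/- and 0.873, 0.811 and 0.887 in WT. These 31 exclude the genes at 0 and are a minority of the core.

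Rpl5 and Rpl11 form a particle with 5S RNA that can bind Mdm2 and so stabilize p53 when ribosome assembly fails. Both were listed at 0 in both replicate 1 libraries. Rpl5 stood at 666 and 546 FPKM in replicates 2 and 3 of ICAM-1-/- and at 476 and 531 FPKM in WT replicates 2 and 3, and Rpl11 at 362 and 1129 FPKM in ICAM-1-/- and 613 and 830 FPKM in WT. Of the 12 genes of the p53 and Mdm2 list, none was called. Over 6 libraries 6 were above 0 and 6 below, and within replicates 2 and 3, 7 were above 0 and 5 below. Its smallest p belonged to Sesn1, a stress-induced regulator of mTORC1, at 13.5, 30.6 and 13.9 FPKM in ICAM-1-/- and 0.402, 9.60 and 6.66 FPKM in WT (difference 1.97 ± 0.96 SE; limma adjusted p = 1.00).

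The stalk proteins recruit elongation factors and differed among themselves in replicate 1. Rplp0, the base of the stalk, stood at 754, 734 and 1817 FPKM in ICAM-1-/- and 322, 1223 and 1380 FPKM in WT. Rplp1 stood at 1164, 2494 and 2551 FPKM in ICAM-1-/- and 431, 1768 and 2035 FPKM in WT, with differences of 0.29 ± 0.93 for Rplp0 and 0.75 ± 0.99 for Rplp1 (SE). Without WT replicate 1 these were -0.37 for Rplp0 and 0.04 for Rplp1, and without ICAM-1-/- replicate 3 that of Rplp0 was -0.13. Their partner Rplp2, which was far lower in replicate 1, stood at 33.7, 1194 and 2362 FPKM in ICAM-1-/- and at 0, 2189 and 2295 FPKM in WT. Rpsa, a small subunit protein also described as a laminin receptor, stood at 14, 713 and 1162 FPKM in ICAM-1-/- and 20.1, 681 and 857 FPKM in WT.

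A chosen list of 9 genes mutated in Diamond-Blackfan anemia, which does not hold every such gene, gave no call. Over 6 libraries 6 were above 0 and 3 below, with a median of 0.43, and within replicates 2 and 3, 4 were above 0 and 5 below, with a median of -0.0003. Of the 9, 5 were listed at 0 in ICAM-1-/- replicate 1 and 7 in WT replicate 1. Rps19, the gene most often affected in that disease, stood at 10.5, 580 and 1048 FPKM in ICAM-1-/- and 0.0593, 704 and 863 FPKM in WT, and its difference within replicates 2 and 3 was -0.0003. Rpl35a stood at 120, 718 and 894 FPKM in ICAM-1-/- and 41.5, 527 and 575 FPKM in WT. Its difference of 0.86 ± 1.15 (SE; limma adjusted p = 1.00) became -0.37 without WT replicate 1. Rps10 was listed at 0, 791 and 1385 FPKM in ICAM-1-/- and 0, 1177 and 1151 FPKM in WT. Of the ubiquitin fusion genes, Rps27a was listed at 0, 238 and 667 FPKM in ICAM-1-/- and 0, 298 and 439 FPKM in WT. Fau, outside the name rule, stood at 10.3, 980 and 1867 FPKM in ICAM-1-/- and 0, 1606 and 1472 FPKM in WT.

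Of the 7 paralogs, Rpl22l1, Rps27l, Rpl36al and Rpl39l exceeded their core partner in at least 1 library, Rpl39l in WT replicate 1 alone, where Rpl39 was listed at 0. Rpl10l, a retrogene of Rpl10 known from testis, was listed at 0 in all 6 libraries. Rpl3l, the striated muscle counterpart of Rpl3, did not exceed 0.796 FPKM. Rpl22l1, the paralog of the T cell development gene Rpl22, stood at 18.2, 0 and 216 FPKM in ICAM-1-/- and 0, 108 and 391 FPKM in WT, while Rpl22 stood at 35.9, 26 and 105 FPKM in ICAM-1-/- and 21.9, 45.4 and 45.0 FPKM in WT. The paralog was the more abundant of the pair in ICAM-1-/- replicate 3 (205% of Rpl22) and in WT replicates 2 and 3 (238% and 868%), and the lower one in the other 3 libraries. Rps27l, a p53-inducible paralog that exceeded Rps27 in every library but WT replicate 1, stood at 41.1, 65 and 209 FPKM in ICAM-1-/- and 0.146, 104 and 172 FPKM in WT. Rps27 itself did not exceed 21.9 FPKM in any library, while the median small subunit member stood at 791 FPKM or more outside replicate 1. The order of this pair therefore rests on low listed values of Rps27, and whether these are failed estimates was not tested. Rpl36al and Rpl36a were close to each other. Rpl36al stood at 31.2 and 311 FPKM in replicates 2 and 3 of ICAM-1-/- and at 172 and 167 FPKM in those of WT, and Rpl36a at 30.7 and 319 FPKM in ICAM-1-/- and 120 and 254 FPKM in WT, and both were listed at 0 in both replicate 1 libraries. Close copies can share reads, so the split between Rpl36al and Rpl36a is uncertain, and it was not examined. Rps4y2, annotated as Rps4l in GENCODE M21, stood at 15.1, 4.38 and 17.5 FPKM in ICAM-1-/- and 0, 10.2 and 1.75 FPKM in WT, with the smallest p of the family (difference 1.90 ± 1.07 SE; limma adjusted p = 1.00).

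Outside replicate 1, 67 of 86 members stood at 100 FPKM or more in all 4 libraries, and 38 of 84 tested members varied less than 2-fold. Rpl13a, which in mouse carries 4 annotated small nucleolar RNAs, was the steadiest of the 4-library set, at 1405 and 1447 FPKM in replicates 2 and 3 of ICAM-1-/- and 1221 and 1423 FPKM in WT replicates 2 and 3. Among core genes, 5 stayed under 100 FPKM in all 4: Rpl26, Rpl30, Rpl34, Rps15a and Rps27. Rps27 stood at 0, 1.21 and 8.71 FPKM in ICAM-1-/- and 21.9, 4.49 and 1.52 FPKM in WT. Rpl30 was under 0.001 FPKM in both replicate 1 libraries, with 37.0 and 36.6 FPKM in replicates 2 and 3 of ICAM-1-/- and 10.1 and 7.28 FPKM in WT replicates 2 and 3, and its difference within replicates 2 and 3 was 1.98 (limma adjusted p = 1.00). Rpl26 stood at 94.5 FPKM in ICAM-1-/- replicate 3 and 24.5 FPKM in WT replicate 2 and under 0.01 FPKM in the other 4 libraries.

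ICAM-1-/- replicate 2 had its own composition. As a share of the members' summed FPKM, 13 tested members were at less than 0.5 times their mean share in ICAM-1-/- replicate 3 and WT replicates 2 and 3, and 3 members, Rpl23, Rpl30 and Rps13, at more than 2 times. Rps26 made up 0.264% in ICAM-1-/- replicate 2, 1.72% in ICAM-1-/- replicate 3, and 1.49% and 1.11% in WT replicates 2 and 3. Rpl39, an X-linked protein of the peptide exit tunnel, made up 0.231% and 1.65% in ICAM-1-/- replicates 2 and 3 and 0.819% and 1.72% in WT. Rps13, a small subunit protein, made up 1.60% and 0.660% in ICAM-1-/- replicates 2 and 3 and 0.659% and 0.730% in WT. The low 13 had a median transcript length of 560 nt, against 926 nt over the 84 tested members. This describes 1 library, and a link to the recipients' genotype was not tested.

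**Figure D5:**
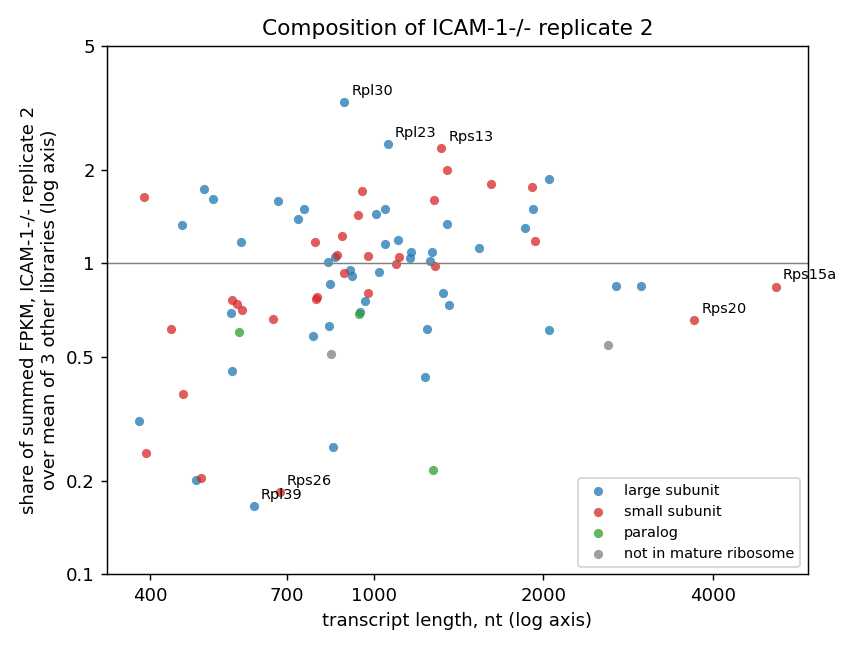
Share of each tested member in the summed ribosomal protein FPKM of ICAM-1-/- replicate 2, divided by its mean share in ICAM-1-/- replicate 3 and WT replicates 2 and 3 (y axis, log scale), against transcript length (x axis, log scale). Rpl30 lies highest at 3.29 and Rpl39 lowest among those drawn at 0.166; Rpl26 and Rpl22l1 lie below the axis.

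The members differ from most genes in length and in sequence copies. Their longest protein-coding transcripts had a median of 926 nt (383 to 5179) in GENCODE M21, against 3057 nt over 10102 tested protein-coding genes. A median of 27% of a member's 31-base stretches also occurred in transcripts of other genes, pseudogenes included, against 1.80% over those genes. Among the 82 members averaging 10 FPKM or more, none of the 11 with a share under 10% was at 0 in both replicate 1 libraries, while 3 of 16 were with a share of 10% to 20%, 10 of 24 with 20% to 30%, 6 of 22 with 30% to 50%, and 5 of 9 with 50% or more. Counted by library, 2 of the 11 were at 0 in ICAM-1-/- replicate 1 and 2 in WT replicate 1. Of the 9, these counts were 5 and 7. Rpl8 (6.2%), Rps3 (6.40%) and Rpl34 (10.4%), all high in replicate 1, had low shares. Rplp1 (75.1%) had a high share and was high there too. Rps19 (7.6%) had a low share too and stood at 10.5 and 0.0593 FPKM in the ICAM-1-/- and WT replicate 1 libraries. The 16 members at 100 FPKM or more in both replicate 1 libraries had a median share of 28.7%. The 24 tested members at 0 in both had a median share of 29.3%, so the 2 medians barely differed. The shares ranged from 1.0% to 75.1% in the 16 and from 15.1% to 88.8% in the 24. In other protein-coding genes averaging 10 FPKM or more, those at 0 made up 2.12% in ICAM-1-/- replicate 1 and 18% in WT replicate 1 for shares under 10%, and 14.3% and 40.5% for shares of 50% or more. By length, they made up 26.6% and 59.5% of other genes shorter than 600 nt and 1.53% and 15.6% of those of 1300 nt or more. In between, they made up 19.4% and 61.1% of those of 600 to 900 nt and 10.5% and 48.2% of those of 900 to 1300 nt. Among the members, 6 of 17 shorter than 600 nt and 3 of 18 of 1300 nt or more were at 0 in both replicate 1 libraries. By library, ICAM-1-/- and then WT, these counts were 7 and 10 of the 17 and 3 and 8 of the 18. They were 12 and 12 of the 22 members of 600 to 900 nt and 7 and 14 of the 25 of 900 to 1300 nt. Small nucleolar RNA hosts were at 0 in both in 7 of 30 cases and other members in 17 of 52. In ICAM-1-/- replicate 1 these counts were 8 and 21, and in WT replicate 1 they were 17 and 27, so no single direction held. Length and sequence copies move together with membership, and their part in the zeros was not tested.

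Other genes of the translation machinery gave no call. Of 22 further TOP mRNAs, 18 were above 0 and 4 below, with a median of 0.28, and 12 were above 0 within replicates 2 and 3. Their smallest p belonged to Eef1d, an exchange factor subunit of elongation factor 1, at 34.0, 80.4 and 81.7 FPKM in ICAM-1-/- and 0, 42.1 and 45.2 FPKM in WT, a difference of 2.29 ± 1.31 (SE) over 6 libraries and of 0.88 within replicates 2 and 3 (limma adjusted p = 1.00). In the replicate 1 libraries 1 and 7 of these 22 were at 0, in ICAM-1-/- and WT. Of 36 ribosome biogenesis genes 26 were above 0 over 6 libraries, with a median of 0.36, and 14 within replicates 2 and 3, with a median of -0.23. Rpf2, which brings the 5S particle to the assembling large subunit, stood at 10.9, 12.2 and 19.0 FPKM in ICAM-1-/- and 0, 8.76 and 6.01 FPKM in WT (difference 1.84 ± 1.01 SE). Of 17 translation control genes 9 were above 0 over 6 libraries, with a median of 0.02, and 6 within replicates 2 and 3, with a median of -0.27. Eif4ebp1, the mTOR-regulated repressor of the cap-binding factor, stood at 25.2, 7.67 and 20.9 FPKM in ICAM-1-/- and 0, 15.1 and 14 FPKM in WT. Of the 76 mitochondrial ribosomal protein genes 57 were above 0 with a median of 0.75, and 23 within replicates 2 and 3 with a median of -0.29, close to that of all genes. Mrps12, of the mitochondrial small subunit, had the smallest p there, with 36.3, 54.3 and 21.8 FPKM in ICAM-1-/- and 0, 13.1 and 10.4 FPKM in WT (difference 2.73 ± 1.05 SE; limma adjusted p = 1.00). Of these 76 genes, 11 were at 0 in ICAM-1-/- replicate 1 and 51 in WT replicate 1.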

How the data were processed

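The authors deposited gene-level FPKM values, 1 column per library, from LSK RNA that, per the labels' protocols, was extracted with Trizol and prepared with a TruSeq kit. The submitters' processing notes list cutadapt, TopHat2 2.0.11 and Cufflinks 2.1.1. No source used here gives build, annotation or filters. Depth is unknown, so no counting error can be given. The design text gives 3 recipients per group without linking each to a library, so p-values measure the spread between libraries.

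Groups came from the sample titles. Genes averaging 1 FPKM or more were fitted as log2(FPKM + 1) with limma 3.58.1 in R 4.3.3. Group was the only term, with a mean-variance trend, Benjamini-Hochberg adjustment over all genes and a threshold of 0.05. The fit was also run on simulated data that held no block of zeros and no shift shared by the replicate 1 libraries. That run therefore does not show how the fit behaves on such features. The members and lists were chosen with earlier results of these data known. Same-numbered libraries deviated together from their group means (r = 0.35, 0.126 and 0.306 across genes for numbers 1, 2 and 3), so the replicate number was also fitted as a block; this pairing is inferred from the data, and differently numbered libraries reached the same r (0.306). Genes named are the most abundant, those of smallest p, and those of fixed roles; Rps3, Rpl8, Rpl34, Rpl13a, Rpl26, Rpl30, Rps13 and the 19 members of replicates 2 and 3 were named after their values were seen, as were the classes by level in replicate 1 and the bins of length and 31-base shares. These features were matched to GENCODE M21 by symbol, promoters to RefSeq. Some items are not reported here.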

Additional observations from a re-analysis of the deposited data

How the results depend on the processing

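No member was called under any alternative except the replicate block, where 1 was (Rps20). Over all genes the main comparison called 0 (54 at an unadjusted p under 0.05), against 13 with the replicate block, 4 with limma array weights, 3 within replicates 2 and 3 and 1 with a batch term for the replicate 1 libraries; leaving out 1 library at a time gave 0 to 1. Of 84 tested members 57 were above 0, but 23 with array weights, and 8 to 78 when 1 library was left out, with a median difference between -1.28 and 2.41. The median was -0.10 with values under 0.001 FPKM as missing and -0.47 with array weights; under the pseudocounts, filters, scalings and no trend it lay between 0.21 and 0.59. The mean ratio of large to small subunit was 1.02 in ICAM-1-/- and 0.857 in WT over members above 0 in every library. For the 37 named genes, 543 of 663 values under alternatives kept the sign. The filters, no trend, the replicate block and the batch term leave a gene's difference as it was. Part of this count was therefore fixed in advance, and it overstates how stable the signs were. The block changed no other call among the members. The cause of these changes was not tested. Unknown depth and many values of 0 limit every comparison that includes replicate 1.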
